A study of Mus musculus with 2 samples.

Results

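The mitochondrial genome of the mouse carries 37 genes, all of which were taken here by their place on the mitochondrial chromosome (chrM) in GENCODE M21: 13 mRNAs, 2 rRNAs and 22 tRNAs. All 37 had a line in the count tables, out of 55401 genes in all. RNA had been sequenced from hearts of C57BL/6 mice with transverse aortic constriction (TAC), an operation that narrows the aorta and makes the heart pump against raised pressure. One library came from TAC alone. The other came from TAC with dioscin, a steroidal saponin of yams, given for 4 weeks after surgery and called the dioscin library here. The treatment text is worded alike for both samples, so TAC alone is taken from the treatment label of that sample. The sources used here do not give the dose, the time after surgery of the TAC library, the substrain, the age of the mice or the number of hearts in a library. With 1 library per group no test of the treatment was possible, and every interval below covers counting error only.

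The mitochondrial genome is a small circle that is copied into long RNAs from both of its strands. These are cut into single transcripts mostly at the tRNAs that lie between the other genes, a layout known as tRNA punctuation. The mRNAs encode core subunits of complexes I, III, IV and V of the respiratory chain, the rRNAs form the mitochondrial ribosome, and the tRNAs serve its translation. The heart, which depends on oxidative metabolism, is known for a high level of these RNAs.

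Counts in genes summed to 16782741 with TAC alone and 17612259 with dioscin. The Illumina TruSeq RNA kit used for the libraries usually selects polyadenylated RNA, so counts of rRNAs and tRNAs do not measure their amount in the tissue. All 8 genes of the ventricular muscle list were detected, with summed levels of 49755 and 53547 CPM (counts scaled by the TMM library size). The list also holds genes of heart muscle at large, so its sum does not measure ventricle alone. Its dioscin over TAC ratios ran both ways, with 6 over 1 and 2 under 1, Myl2 at 0.785 and Ttn at 0.654. Markers of other tissue differed between the libraries. The 6 atrial markers summed to 592 CPM with TAC alone, where Mybphl and Bmp10 had 0 counts, and to 17319 CPM with dioscin, with 5 of 6 higher by the rule given below. Nppa alone made 588 and 12663 CPM of these sums. Without and with dioscin, Sln had 1 and 12433 counts, Myl7 13 and 30109, Myl4 55 and 33721, and Mybphl 0 and 3427. Bmp10 had 0 and 3 counts. The mesothelial list summed to 18.5 and 153 CPM (7 of 8 higher, Krt8 and Krt18 at 0 with TAC alone), and white fat to 0.811 and 31.1 CPM (5 of 7 higher, Cidec, Plin1 and Retn at 0 with TAC alone and Lep at 0 in both). Brown fat markers summed to 20.1 and 57.1 CPM (2 of 4 higher), with Ucp1, which defines that tissue, at 0 counts in both. The B cell list summed to 33.1 and 8.35 CPM (6 of 7 lower), and neutrophil markers to 19.1 and 5.43 CPM (3 of 5 lower, Ly6g at 0 in both). Summed levels of the fibroblast list were 630 and 1444 CPM (2 of 5 higher), of the macrophage list 104 and 207 CPM (2 of 6 higher and 1 lower), of the endothelial list 960 and 1286 CPM (2 of 5 higher), and of the red cell list 373 and 306 CPM (1 of 5 lower). The part of these tissue markers in the differences below was not tested. In RNA from mixed tissue, fewer cells of a type and less RNA per cell cannot be told apart.

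Several members share nearly all of their sequence with nuclear DNA, which bears on how their reads were counted. Of the 13 mRNAs, 7 have an annotated copy of their whole length or a part of it in one row on chromosome 1 (GRCm38, chr1:24611535-24616197, minus strand), in the same order as on chrM. Of all 50-base windows of the gene, 100% of mt-Co2, 99.9% of mt-Co3, 99.5% of mt-Atp6, 98.8% of mt-Nd4l and 98.0% of mt-Nd3 occurred exactly in an annotated nuclear transcript. The share was 62.2% for mt-Nd4 and 51.1% for mt-Co1. It was 8.19% for mt-Nd2, 7.61% for mt-Nd5 and 0 for mt-Nd1, mt-Nd6, mt-Cytb and mt-Atp8. The search covered annotated transcripts only. As mt-Atp8 lies between mt-Co2 and mt-Atp6, which both have copies in the row, its 0 does not show that it lacks one. A read lying wholly inside a shared window matches both places equally well. The files place reads with several alignments in a class of their own, which held 38.2% of all reads accounted for with TAC alone and 36.5% with dioscin.

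For mt-Nd3 (ENSMUSG00000064360.1, chrM:9459-9806, plus strand) the copy is Gm28438 (ENSMUSG00000101939.1, chr1:24612775-24613119, minus strand). Aligned over 345 bases, the pair had 344 identical bases and 1 substitution, T3C, with positions counted from 1 at the first base of mt-Nd3 and the base of mt-Nd3 written first. That base is position 9461 of chrM. The copy also lacks the last 3 bases of the gene. The starts and ends of both, from the GENCODE M21 transcripts, show how little tells them apart, with the differing base or the bases without a copy in capitals (chrM:9459-9518 and chrM:9747-9806 on the plus strand, chr1:24613060-24613119 and chr1:24612775-24612831 on the minus strand).
mt-Nd3 start: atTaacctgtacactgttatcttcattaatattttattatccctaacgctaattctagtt
Gm28438 start: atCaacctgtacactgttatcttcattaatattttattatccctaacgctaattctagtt
mt-Nd3 end: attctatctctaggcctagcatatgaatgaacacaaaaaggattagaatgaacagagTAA
Gm28438 end: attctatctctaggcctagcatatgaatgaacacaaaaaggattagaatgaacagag
The aligned parts of the other 6 pairs held no substitution.

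The comparison asked how transcripts of the mitochondrial genome differed between the pressure-loaded heart without and with dioscin. As a whole they took a smaller share of the dioscin library: 31.56% of gene counts with TAC alone (95% Clopper-Pearson interval 31.54 to 31.59) and 25.47% with dioscin (25.45 to 25.49). The summed level went from 306767 to 262107 CPM, a dioscin over TAC ratio of 0.854 (0.853 to 0.855). The rRNAs made 34.9% of that difference, the mRNAs 61.0% and the tRNAs 4.07%. Ribosomal RNA was the class with the lowest ratio of sums, 0.491 (0.489 to 0.493), against 0.900 (0.899 to 0.901) for the mRNAs and 0.581 (0.574 to 0.588) for the tRNAs.

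A gene is called higher or lower here when its level was 1 CPM or more in either library, its log2 ratio, with 0.5 added to both counts, was at least 1 in size (2-fold), and its exact counting interval excluded 1. Of 15697 genes at or above 1 CPM, 19.3% passed this rule, 10.5% as higher and 8.77% as lower. With 1.5-fold in place of 2-fold, 38.2% passed (20.3% higher, 17.9% lower), and with 3-fold 8.5% (4.98% higher, 3.53% lower). When libraries were scaled by counts outside the mitochondrial genome, these shares were 7.71% and 13.8%, since that scaling moved the median log2 ratio of all genes from 0.01 to -0.21. Of the 37 members 26 reached 1 CPM, and of these 1 was higher (mt-Th) and 3 were lower (mt-Nd3, mt-Rnr2 and mt-Tp). With 1.5-fold 2 were higher and 9 lower, and with 3-fold 1 was higher and 1 lower. Among the mRNAs 1 of 13 passed, against 17.1% of protein-coding genes (9.8% higher, 7.27% lower) and 38.0% of the 71 genes outside the mitochondrial genome that reached 1000 CPM (32.4% higher, 5.63% lower). The median log2 ratio of the mRNAs was -0.27, beside 0.01 for all genes at or above 1 CPM.

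**Figure D1:**
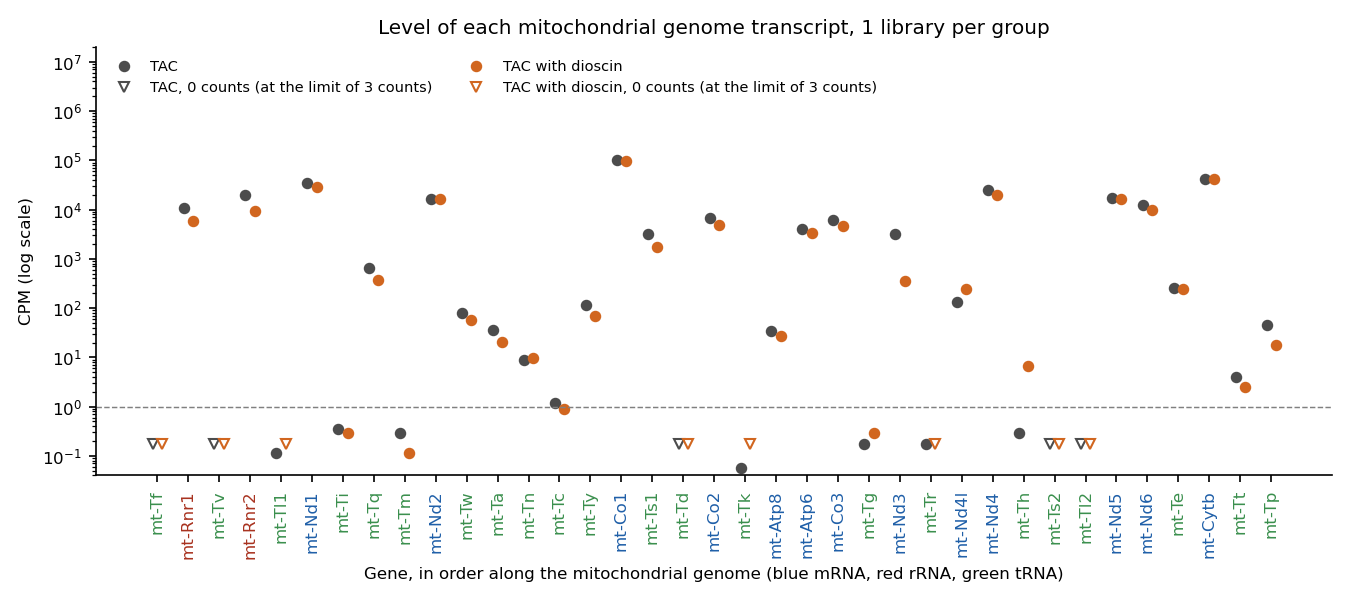
Level of each of the 37 transcripts in CPM (log axis) with TAC alone (grey) and with dioscin (orange), in gene order; triangles stand for 0 counts, drawn at the level of 3 counts, and the dashed line is 1 CPM. The mRNAs and rRNAs lie between 27.3 and 103381 CPM, and 11 of the 22 tRNAs lie below 1 CPM in both libraries.

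Among the respiratory complexes, the ratios of the complex I mRNAs spanned the widest range, with mt-Nd3 and mt-Nd4l at its ends. Of 7 mRNAs 1 was lower, none was higher, and the ratios ran from 0.107 to 1.87. Nearly all of the sequence of both mt-Nd3 and mt-Nd4l occurs in a nuclear copy. Without these, complex I ran from 0.766 to 1.01, beside 0.704 to 0.953 for the mRNAs of complex IV. mt-Nd3 encodes a small membrane subunit of complex I near the ubiquinone site. It had 56239 counts (3257 CPM) with TAC alone and 5980 counts (349 CPM) with dioscin, 9.32-fold lower (9.08 to 9.58). Only 86 of the 15697 genes at or above 1 CPM had a lower ratio. Its share of all mitochondrial counts went from 1.06% to 0.133%.

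The copy of mt-Nd3 on chromosome 1 was lower in the same library. Gm28438 had 6488 and 2493 counts, 2.58-fold lower (2.46 to 2.70), and the pair summed was 7.34-fold lower (7.17 to 7.51). The 6 other copies in the row had ratios of 0.759 to 1.04 and none passed the rule. For every count in the copy there were 8.67 counts in mt-Nd3 with TAC alone and 2.40 with dioscin. The same quotient was 1.16 and 1.14 for mt-Co3, the mRNA before mt-Nd3, and 28.8 and 27.2 for mt-Nd4. The base at position 9461 is known to vary between C57BL/6 substrains, and the substrain of neither library is given. RNA of mt-Nd3 with C there would match Gm28438 at each of the 345 aligned bases. Which base the RNA of either library carried cannot be read from counts, and its part in the mt-Nd3 difference was not tested.

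The neighbour of mt-Nd3 went the other way. mt-Nd4l (chrM:9877-10173), another small membrane subunit of complex I, had 2300 counts (133 CPM) with TAC alone and 4267 (249 CPM) with dioscin, a ratio of 1.87 (1.78 to 1.97) that missed the 2-fold rule. Its copy Gm10222 had 2538 and 2421 counts, a ratio of 0.962 (0.910 to 1.02). In counts, mt-Nd3 stood 24.5-fold above mt-Nd4l with TAC alone and 1.40-fold above it with dioscin. Between them lies only the arginine tRNA mt-Tr, with 3 and 0 counts.

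**Figure D2:**
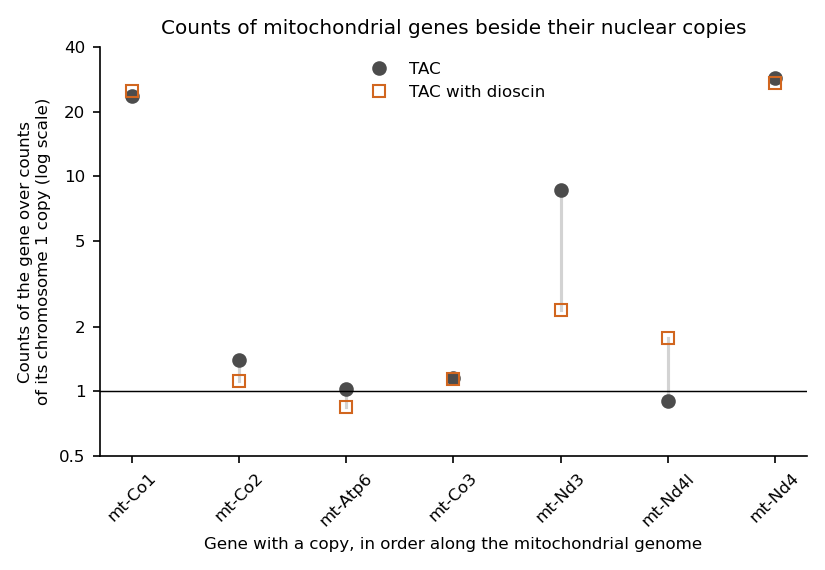
Counts of 7 mitochondrial mRNAs divided by the counts of their chromosome 1 copies (log axis), with TAC alone (grey circles) and with dioscin (orange squares). For mt-Nd3 the quotient is 8.67 and 2.40, for mt-Nd4l 0.906 and 1.76, and the other 5 pairs of points lie closer together.

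The remaining complex I mRNAs stayed inside a 2-fold difference. mt-Nd1, a membrane subunit at the ubiquinone site, had 595827 and 488114 counts, a ratio of 0.826 (0.823 to 0.830). The proton-pumping subunits gave 0.787 (0.784 to 0.791) for mt-Nd4, 0.981 (0.976 to 0.986) for mt-Nd5 and 1.01 (1.01 to 1.02) for mt-Nd2. The direction of mt-Nd2 depended on the scaling. It was 0.956 with library totals, 0.984 with upper quartile scaling and 0.878 with counts outside the mitochondrial genome. With DESeq2's median of ratios it was 1.004, and with TMM outside the mitochondrial genome 1.01. mt-Nd6, the one mRNA on the minus strand, had 217280 and 164939 counts, a ratio of 0.766 (0.761 to 0.771). It shares 14 bases with the end of mt-Nd5 on the other strand. A TruSeq RNA kit usually does not mark strand, and the strand setting of the counting was not given. RNA of mt-Nd6 and RNA from the opposite strand of that region therefore cannot be told apart here.

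In complex III, mt-Cytb, which encodes cytochrome b, had 734659 and 711128 counts, a ratio of 0.977 (0.973 to 0.980). In complex IV, the cytochrome c oxidase, the catalytic subunit gene mt-Co1 was the most abundant member, with 103381 CPM with TAC alone and 98513 CPM with dioscin. Its ratio of 0.953 (0.951 to 0.955) lay closer to 1 than those of the other catalytic core genes, 0.704 (0.698 to 0.710) for mt-Co2 and 0.746 (0.739 to 0.753) for mt-Co3. Nearly all of both of the latter occurs in the copy on chromosome 1. In complex V, the ATP synthase, mt-Atp6 had 68132 and 57981 counts, a ratio of 0.859 (0.849 to 0.868), while its copy Gm10925 had 66523 and 68267 counts, a ratio of 1.04 (1.02 to 1.05). mt-Atp8 had 603 and 467 counts, a ratio of 0.781 (0.691 to 0.883). The ratios of all 13 mRNAs apart from mt-Nd2 and mt-Nd4l were under 1 with each other scaling and with the counts of nuclear copies added. Filters and pseudocounts do not enter these ratios.

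Some neighbouring mRNAs share bases, shown here because HTSeq by default leaves reads over a shared stretch in its ambiguous class. The end of mt-Atp8 and the start of mt-Atp6 overlap by 43 bases, and the end of mt-Nd4l and the start of mt-Nd4 by 7, in capitals with 20 bases on either side (GRCm38, plus strand, chrM:7907-7989 and chrM:10147-10193).
mt-Atp8 and mt-Atp6: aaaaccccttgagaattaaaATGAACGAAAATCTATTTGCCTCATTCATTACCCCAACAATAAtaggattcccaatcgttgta
mt-Nd4l and mt-Nd4: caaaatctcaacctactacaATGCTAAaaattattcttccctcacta
mt-Atp8 held 0.885% as many counts as mt-Atp6 with TAC alone and 0.805% with dioscin. Ambiguous reads made 1.49% and 1.39% of all reads accounted for.

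**Figure D3:**
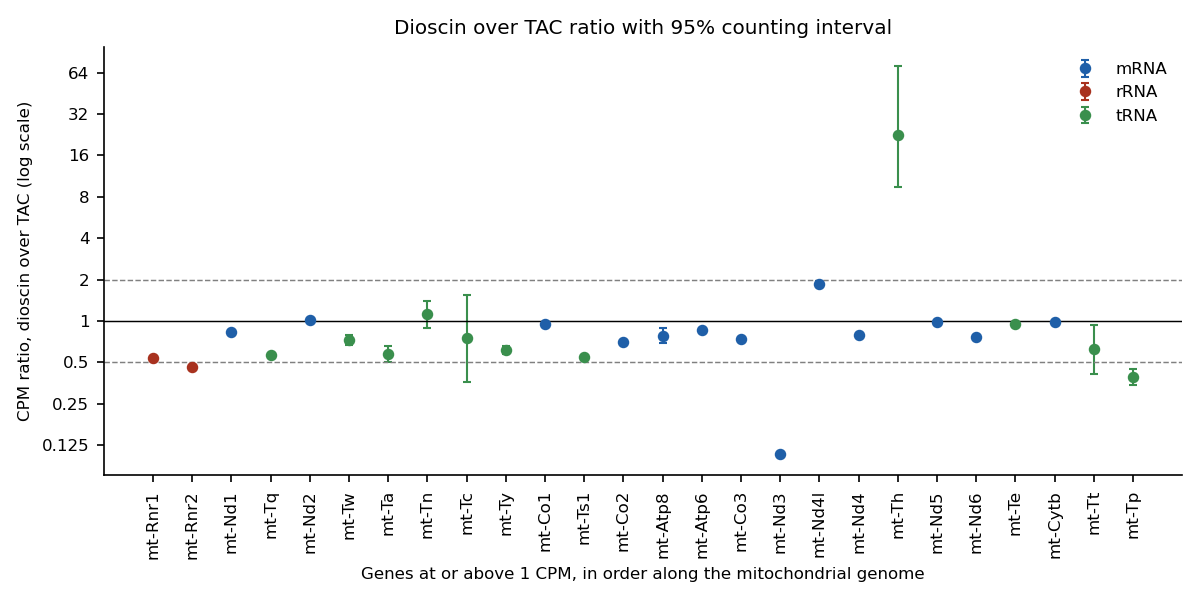
Dioscin over TAC ratio of CPM (log axis) for the 26 members at or above 1 CPM in gene order, coloured by class, with 95% counting intervals; dashed lines mark 2-fold. mt-Nd3 at 0.107 and mt-Th at 22.6 stand far from the rest, and both rRNAs lie below all mRNAs but mt-Nd3.

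Levels per length differed between the mRNAs, of which all but mt-Nd6 lie on the plus strand. With TAC alone mt-Co1 stood at 66914 CPM per kilobase, mt-Cytb at 37188 and mt-Nd1 at 36054. The 5 mRNAs with at least 90% of windows in a copy ranged from 448 (mt-Nd4l) to 10053 CPM per kilobase (mt-Co2). Those with under 10% of windows in an annotated copy ranged from 171 (mt-Atp8) to 37188 (mt-Cytb). The lowest of them apart from mt-Atp8 was mt-Nd5 at 9254. The order of the 3 most abundant was the same with dioscin, with 63763, 36316 and 29798 CPM per kilobase. mt-Atp8 lies between mt-Co2 and mt-Atp6, whose copies on chromosome 1 are 233 bases apart, and the sequence of that gap was not used here. Whether mt-Atp8 has a copy in that gap was not tested. The sum of the 5 mRNAs with at least 90% of windows in a copy had a ratio of 0.659 (0.656 to 0.663), and that of the 6 with under 10% had 0.918 (0.916 to 0.920). The 2 mRNAs between, mt-Nd4 and mt-Co1, had 0.920 (0.919 to 0.922). The sum of 5 includes mt-Nd3 at 0.107. Its other ratios were 0.704 for mt-Co2, 0.746 for mt-Co3, 0.859 for mt-Atp6 and 1.87 for mt-Nd4l. Without mt-Nd3, Spearman's rho between the share of windows in a copy and the log2 ratio was -0.20 over 12 mRNAs, which share their libraries and, apart from mt-Nd6, their strand. It was 0.31 with length, 0.33 with GC content and 0.05 with gene order.

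**Figure D4:**
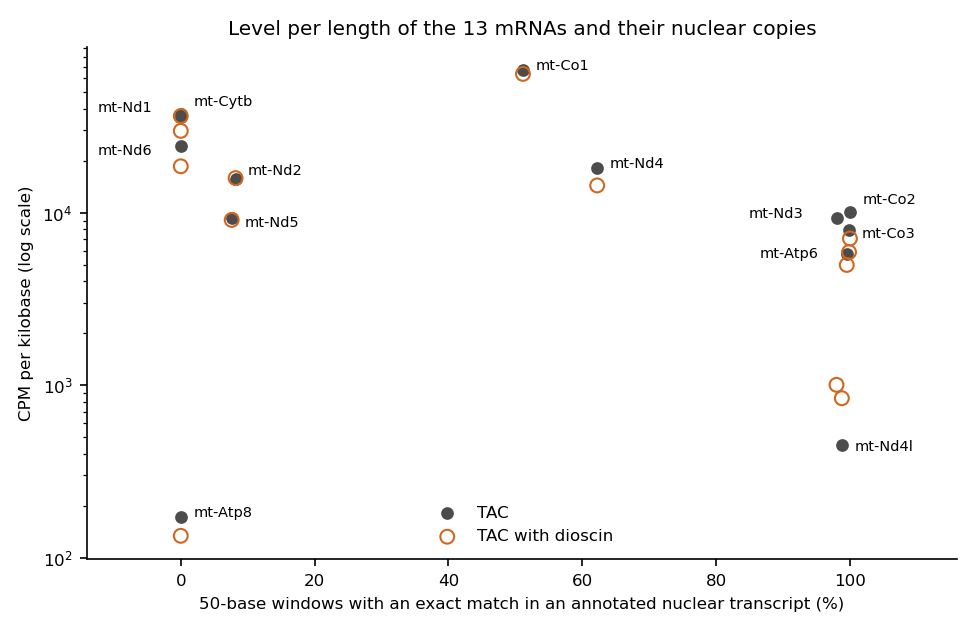
Level per length of the 13 mRNAs (CPM per kilobase, log axis) against the share of their 50-base windows that occur exactly in an annotated nuclear transcript, with TAC alone (filled) and with dioscin (open). With TAC alone the 5 mRNAs near 100% lie at or below 10053 CPM per kilobase.

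Both rRNAs were at a lower level with dioscin, and 1 of the 2 passed the rule. mt-Rnr2 (chrM:1094-2675), the large ribosomal RNA, had 342633 counts (19841 CPM) and 158607 counts (9266 CPM), 2.14-fold lower (2.13 to 2.15). mt-Rnr1 (chrM:70-1024), the small ribosomal RNA, had 186892 and 99193 counts, a ratio of 0.535 (0.531 to 0.540) that missed 2-fold but passed it, at 0.464, with scaling by counts outside the mitochondrial genome. Together they made 9.996% of mitochondrial counts with TAC alone and 5.75% with dioscin. mt-Nd1 follows mt-Rnr2 on the genome, with 1 tRNA between. For every 100 counts of mt-Nd1 there were 57.5 counts of mt-Rnr2 with TAC alone and 32.5 with dioscin. This quotient needs no scaling between the libraries. It does not remove differences between them in the selection of polyadenylated RNA, so it does not measure the amount of rRNA in the tissue.

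**Figure D5:**
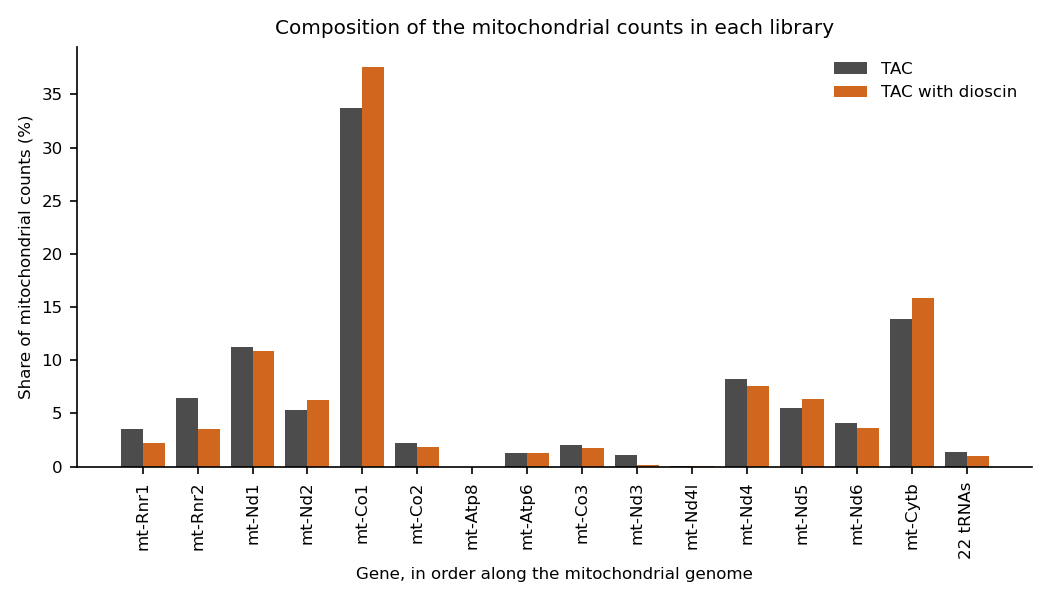
Share of all mitochondrial counts (%) held by each mRNA, each rRNA and the 22 tRNAs together, with TAC alone (grey) and with dioscin (orange). mt-Co1 holds 33.7% and 37.6%, mt-Cytb 13.9% and 15.9%, mt-Rnr2 6.47% and 3.53%.

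As a share of all mitochondrial counts, which needs no scaling, the mRNAs held 88.6% with TAC alone and 93.3% with dioscin. The share of mt-Co1 went from 33.7% to 37.6%, that of mt-Cytb from 13.9% to 15.9%, that of mt-Nd5 from 5.50% to 6.32% and that of mt-Nd2 from 5.30% to 6.28%. The share of mt-Nd1 was 11.2% and 10.9%, and that of mt-Nd4 8.20% and 7.56%. Complex I mRNAs held 35.5% and 34.9% in all, and complex IV mRNAs 38.0% and 41.2%. A share also moves when other members change, and the rRNAs held less of the whole with dioscin. Of mRNA counts alone, mt-Co1 held 38.0% and 40.3%, and mt-Cytb 15.7% and 17.0%. On that base mt-Nd1 held 12.7% and 11.7%, and mt-Nd4 9.26% and 8.10%.

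The tRNAs split by strand. Of the 8 on the minus strand all reached 1 CPM, with 73439 counts with TAC alone and 41952 with dioscin in all. The 14 on the plus strand held 1449 and 1146 counts, and 3 of them reached 1 CPM. As strand is not known to have been kept, RNA from the opposite strand over a minus-strand tRNA cannot be told apart from the tRNA itself. The sequences of 3 tRNAs follow (GRCm38, 5′ to 3′, anticodon in capitals), the serine tRNA mt-Ts1 because it held most tRNA counts, and the histidine tRNA mt-Th and the proline tRNA mt-Tp because they passed the rule. They lie at chrM:6870-6938 (minus strand), chrM:11546-11612 (plus strand) and chrM:15356-15422 (minus strand).
mt-Ts1: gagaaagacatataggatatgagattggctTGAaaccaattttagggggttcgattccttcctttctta
mt-Th: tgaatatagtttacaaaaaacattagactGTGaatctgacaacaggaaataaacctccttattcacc
mt-Tp: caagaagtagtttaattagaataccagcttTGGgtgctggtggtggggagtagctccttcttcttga

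mt-Ts1, which lies opposite the stretch just after mt-Co1 and shares 3 bases with it, had 53967 and 29343 counts, a ratio of 0.549 (0.541 to 0.556). It held 3.02% as many counts as mt-Co1 with TAC alone and 1.74% with dioscin. mt-Tp had 775 and 303 counts, 2.54-fold lower (2.22 to 2.90). The other minus-strand tRNAs did not pass. Their ratios were 0.562 (0.545 to 0.579) for the glutamine tRNA mt-Tq, 0.579 (0.507 to 0.662) for the alanine tRNA mt-Ta and 0.614 (0.571 to 0.660) for the tyrosine tRNA mt-Ty. The glutamate tRNA mt-Te had 0.946 (0.907 to 0.987), and the intervals of the asparagine tRNA mt-Tn (151 and 168 counts) and the cysteine tRNA mt-Tc (20 and 15 counts) held 1.

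On the plus strand mt-Th had 5 counts (0.290 CPM) with TAC alone and 112 counts (6.54 CPM) with dioscin, 22.6-fold higher (9.40 to 71.0), from counts that are small beside those of its neighbour mt-Nd4 (434577 and 339147). The tryptophan tRNA mt-Tw had 1356 and 980 counts, a ratio of 0.729 (0.671 to 0.792), and the threonine tRNA mt-Tt 68 and 42 counts, a ratio of 0.623 (0.414 to 0.929). Another 6 plus-strand tRNAs had between 0 and 6 counts in a library: mt-Tl1, mt-Ti, mt-Tm, mt-Tk, mt-Tg and mt-Tr. The last 5, mt-Tf, mt-Tv, mt-Td, mt-Ts2 and mt-Tl2, had 0 counts in both libraries, which allows a level of up to 0.174 CPM with TAC alone and 0.175 CPM with dioscin, for counting error only. That limit is one of counted reads, not of the amount of these tRNAs.

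Nuclear genes that serve the mitochondrial genome are given by list, beside 17.1% of protein-coding genes that passed the rule (9.8% higher, 7.27% lower). Of 23 genes of its transcription and maintenance, none was higher and 1 was lower (median log2 ratio 0.02). That gene was Mterf4, which encodes a factor of mitochondrial ribosome assembly, 2.21-fold lower at 1526 and 683 counts. The gene of this list with the highest CPM in either library, the matrix protease Lonp1 with dioscin, had a ratio of 1.39 (1.30 to 1.49). None of 41 genes of mitochondrial RNA processing, modification and decay passed in either direction (median -0.21), with 0.733 (0.696 to 0.771) for Fastk, the most abundant. None of 22 genes that charge mitochondrial tRNAs, 19 synthetases and the amidotransferase subunits Qrsl1, Gatb and Gatc, passed (median -0.20), and the most abundant, the leucine enzyme gene Lars2, had 209 and 110 CPM, a ratio of 0.529. Of 14 matched translation factors 1 was higher, the release factor gene Mtrf1 at 2.13 (1.41 to 3.26) from 36 and 76 counts, and the elongation factor gene Tufm had 1.55 (1.45 to 1.65). None of 8 nuclear regulators passed (median -0.08), with 0.740 (0.696 to 0.786) for the nuclear receptor gene Esrra.

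Nuclear-encoded partners in the respiratory complexes were checked as a chosen list, not in full. Most of that list lay on the other side of 1 from most mitochondrial mRNAs. Of 21 partner genes 20 had a ratio above 1 and 6 passed the rule, all of them higher. The median log2 ratio was 0.73 beside -0.27 for the mitochondrial mRNAs and 0.01 for all genes. It was 0.51 for the 71 genes outside the mitochondrial genome at or above 1000 CPM, of which 55 had a ratio above 1 and 32.4% were higher. Those that passed by most were Sdha of complex II (2.47, 2.37 to 2.58), Ndufb8 of complex I (2.47, 2.34 to 2.61) and Atp5a1 of the ATP synthase (2.38, 2.33 to 2.43). The most abundant, Atp5b, the catalytic subunit of the ATP synthase, had 33400 and 65436 counts, a ratio of 1.98.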

How the data were processed

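Per the labels' protocols, Trizol was used on frozen hearts and the TruSeq RNA kit turned 1 ug of RNA into each library. The authors deposited raw counts of reads per Ensembl gene for 1 TAC library and 1 TAC with dioscin library, grouped here by the treatment label. HISAT2 2.1.0, HTSeq and the build mm10 are named in the submitters' processing notes. Not given in the sources used here are the annotation release, the strand setting and the read length. The 5 HTSeq class lines were kept out of library sizes. Gene names and coordinates came from GENCODE M21 on GRCm38, the build mm10 names, matched without version for 55141 of 55401 identifiers.

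Counts were scaled with TMM (edgeR 4.0.16, R 4.3.3). Ratios have exact conditional binomial (Clopper-Pearson) 95% intervals, which cover counting error only, since PCR copies were not told apart. No p-value was computed with 1 library per group. The rule for calling genes was tested on simulated counts with counting error only, which do not show how it handles differences between mice. Exact 50-base windows of each member were searched, on both strands, among all nuclear GENCODE M21 transcripts, and members were aligned to their best copy with Biopython 1.88. A genome sequence was not used. All members at or above 1 CPM are described. Of each list of other genes, up to 3 that passed, those with the interval bound farthest from 1, and the most abundant are named. Prorp was matched as 1110008L16Rik and Mtrfr was not matched. The members and lists were chosen with earlier results of these data known. Alternatives were other scalings (library totals, DESeq2 1.42.0, upper quartile, counts outside the mitochondrial genome), filters, folds, pseudocounts, and adding the counts of nuclear copies.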

Additional observations from a re-analysis of the deposited data

How the results depend on the processing

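The count of 1 lower mRNA, mt-Nd3, held in all 11 alternatives. With a fold of 1.5 there was also 1 higher mRNA, and over all members 2 were higher and 9 lower, and with a fold of 3 the lower members came to 1. With scaling by counts outside the mitochondrial genome 6 members were lower, against 3. The median log2 ratio of the mRNAs was -0.36 with library totals, -0.29 with DESeq2's median of ratios, -0.32 with upper quartile scaling, -0.48 with counts outside the mitochondrial genome and -0.28 with TMM outside it. With mRNAs only, the mitochondrial share was 28.0% with TAC alone and 23.8% with dioscin. Without rRNAs it was 28.4% and 24.0%, and with protein-coding plus mitochondrial RNA counts as the denominator 33.7% and 27.2%. Adding the counts of nuclear copies gave a ratio of 0.136 for mt-Nd3 and 1.39 for mt-Nd4l. With 100-base windows, chosen after seeing the data, 30.8% of mt-Co1 lay in a copy, and 0 of mt-Nd5. No paired analysis was possible because each group had 1 library.

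With 1 library per group, differences between mice, batches and dissections cannot be told apart from the treatment. For members with a copy on chromosome 1, counts hold only reads that the aligner placed in 1 position. For tRNAs, low counts limit precision.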

Other observations

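The tRNAs that passed the rule or held most tRNA counts can be set beside the nuclear genes of the enzymes that charge them, which were named after their values were seen. Hars2, the mitochondrial histidine enzyme gene, had 610 and 421 counts, a ratio of 0.696 (0.614 to 0.790), beside 22.6 for mt-Th. Pars2, the proline enzyme gene, had 37 and 27 counts and a ratio of 0.736 (0.431 to 1.24), beside 0.394 for mt-Tp. Sars2, the serine enzyme gene, had 141 and 124 counts and a ratio of 0.887 (0.691 to 1.14), beside 0.549 for mt-Ts1. Counts of tRNAs do not measure their amount, and mt-Th had only 5 and 112 counts. A relation between tRNA and enzyme therefore cannot be read from these ratios. Polrmt, the mitochondrial RNA polymerase gene, had a ratio of 0.915 (0.805 to 1.04), and Tfam, which packs the genome and starts its transcription, 1.16 (0.989 to 1.37).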
